A study of Macaca mulatta with 24 samples.

Results

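Triglyceride synthesis was followed through 10 genes, GPAM, GPAT3, GPAT4, AGPAT2, AGPAT3, LPIN1, LPIN2, DGAT1, DGAT2 and MOGAT1, in the RNA-seq data of omental white adipose tissue (WAT), a visceral fat depot. Each gene was taken as the Ensembl identifier that carries its symbol in a gene name table, and each symbol had 1 identifier among the 32386 genes of the count table. Of the 10 genes, 9 passed the filter on low counts, as 9 of the 15207 genes tested in all. The biopsies came from 24 female rhesus macaques in 4 groups of 6. All animals carried implants for 3 years. Controls (C) had cholesterol implants and ate monkey chow, the T group had testosterone implants and chow, the WSD group had cholesterol implants and a high-fat Western-style diet, and the T + WSD group had testosterone implants and that diet. Age is 4 years in the labels and higher in the methods of the study. The study chose the 6 animals of each group from a larger cohort because they reflected its metabolic findings, so the groups are not random draws of treated animals.

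White adipocytes store fatty acids as triglyceride, which is assembled on glycerol 3-phosphate by acyltransferases and a phosphatase. GPAT enzymes add the first acyl chain and give lysophosphatidate, AGPAT enzymes add the next and give phosphatidate, lipins remove the phosphate and give diacylglycerol, and DGAT enzymes add the last chain. MOGAT enzymes reach diacylglycerol by another route, by acylating monoacylglycerol, a route best known from the intestine.

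Among the 9 tested members, MOGAT1 was the one whose level followed the diet. It rose with the Western-style diet averaged over the hormone states and, at a borderline adjusted p, in T + WSD against C, and edgeR called no other member in any comparison. It entered the test through the diet groups in which it was high, as its counts below show. DESeq2 also called GPAT4 for the interaction of testosterone and diet. The major acyltransferases of the glycerol 3-phosphate route, GPAM, AGPAT2, DGAT1 and DGAT2, had their highest group means in WSD, but none of these differences passed the test. GPAT3, AGPAT3, LPIN1 and MOGAT1 also had their highest means in WSD. GPAM, AGPAT2, DGAT1 and DGAT2 varied together from animal to animal within groups. Levels below are CPM, that is counts per 1000000 counts of the normalised library size, and a gene counted as differentially expressed (DEG), or called, when its adjusted p was below 0.05 with more than a 1.5-fold change. For the interaction of testosterone and diet the adjusted p had to be below 0.1.

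**Figure D1:**
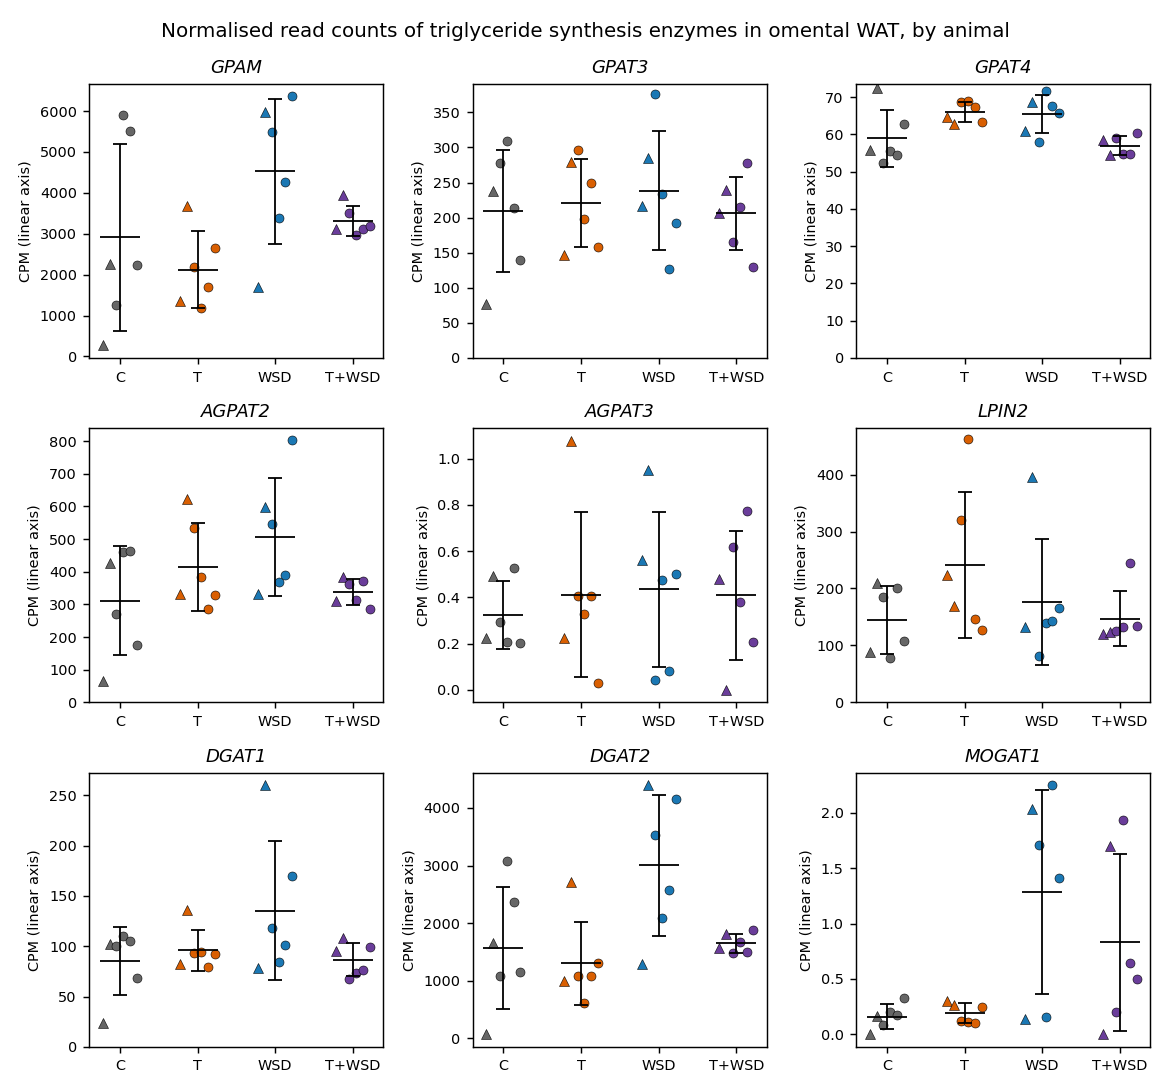
Normalised read counts (CPM, linear axes) of the 9 tested enzymes in each of the 24 animals by group, with triangles for the 8 high-share libraries and with bars for the mean and the SD of 6 animals. MOGAT1 lies at or below 0.327 CPM in every C and T animal and above it in 8 of the 12 animals on the Western-style diet, and C replicate 1 is the lowest C animal for GPAM, GPAT3, AGPAT2, DGAT1, DGAT2 and MOGAT1.

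Total counts ran from 6899185 to 28270776 per library (median 20630512.5), so that 1 read was worth between 0.0313 and 0.283 CPM. In 8 libraries, with 2 from every group, the unnamed gene ENSMMUG00000038258 held between 9.91% and 54.7% of all reads counted, and in the remaining 16 its share was 0.879% to 2.51%. The labels give no batch. The 8 are called high-share libraries here, and values without them are given for a part of the results. The mean log2 CPM of 9 tested adipocyte markers, of 10 listed, ran from 8.31 to 9.75 in 23 libraries and was 6.22 in C replicate 1. That library also had the highest mean of the 9 tested mesothelial markers among the controls, 8.22. In T + WSD the mesothelial mean was 3.10 to 5.82, below every control (6.76 to 8.22), and 8 of its 9 tested genes were called lower than in C. With this cell type moving with the treatment, fewer cells of a type and less RNA per cell cannot be told apart in these bulk samples.

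The acylation of glycerol 3-phosphate is the entry to the pathway, and edgeR called none of its enzymes in any comparison. GPAM encodes the mitochondrial isoform (ENSMMUG00000007526), with 4814 to 153057 counts per library. Its CPM ran from 271 to 5911 in C (median 2252), from 1184 to 3673 in T (median 1942), from 1707 to 6364 in WSD (median 4869) and from 2973 to 3957 in T + WSD (median 3151). C had a mean of 2908 ± 2297 CPM and T of 2125 ± 934, against 4526 ± 1774 for WSD and 3307 ± 364 for T + WSD (SD, n = 6). In the order T, C, T + WSD, WSD, neighbouring groups overlapped, and the 6 T + WSD animals lay within the range of C. The coefficient of variation was 79.0% in C and 10.99% in T + WSD; the difference in spread was not tested. The log2 fold change was 0.64 (SE 0.46, adjusted p = 0.468) in WSD, 0.19 (SE 0.46, adjusted p = 0.827) in T + WSD and -0.45 (SE 0.46, adjusted p = 0.813) in T, all against C. Without C replicate 1 these values became 0.40, -0.04 and -0.69.

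GPAT3, an isoform of the endoplasmic reticulum (ENSMMUG00000041217), had nearly level means of 209 ± 87.3 CPM for C and 221 ± 63.1 for T, beside 238 ± 85.0 for WSD and 206 ± 52.6 for T + WSD (SD, n = 6). All 4 ranges overlapped, and the largest of the 3 log2 fold changes against C was 0.19 (SE 0.29, adjusted p = 0.767), in WSD. The 95% confidence interval ran from -0.41 to 0.78 in that comparison, so a change of 1.5-fold in WSD was not excluded at this spread.

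GPAT4, another isoform of the endoplasmic reticulum (ENSMMUG00000014721), was the least variable member. It ran from 52.4 to 72.6 CPM in C (median 55.7), from 62.8 to 69.0 in T (median 66.0), from 58.0 to 71.7 in WSD (median 66.7) and from 54.6 to 60.3 in T + WSD (median 56.6). Every T + WSD animal lay below every T animal, and 3 of the 6 lay below every WSD animal. Of all tested genes, 6.1% had T and T + WSD groups that did not overlap. The log2 fold change of T + WSD was -0.21 against T (SE 0.07, 95% confidence interval -0.36 to -0.06, adjusted p = 0.0760) and -0.20 against WSD (SE 0.07, adjusted p = 0.128), neither of which passed the test. T and WSD had positive differences from C of 0.17 (SE 0.07, adjusted p = 0.548) and 0.15 (SE 0.07, adjusted p = 0.260). The 95% intervals of all 3 comparisons with C stayed between -0.20 and 0.32 on the log2 scale, within a fold change of 1.5.

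The interaction value of GPAT4, which is the diet effect under testosterone minus the diet effect without it, was -0.37 (SE 0.10, unadjusted p = 0.00172, adjusted p = 0.128, edgeR). It missed the threshold of 0.1 in this fit and passed it in DESeq2 (-0.36, adjusted p = 0.0304). It also passed in edgeR in 2 of the 24 fits with an animal left out. These were without C replicate 2 (-0.43, adjusted p = 0.0334) and without WSD replicate 21 (-0.40, adjusted p = 0.0588). Over the 24 fits the value ran from -0.43 to -0.34, with adjusted p from 0.0334 to 0.215. The edgeR fit without the high-share libraries did not call GPAT4 for the interaction, and it called 0.0129% of all genes. C replicate 2 had the highest GPAT4 level of its group, and WSD replicate 21 had the lowest of its own.

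AGPAT2 acylates lysophosphatidate and is the isoform whose loss causes congenital generalized lipodystrophy (ENSMMUG00000020990). It ran from 66.6 to 463 CPM in C (median 350), from 286 to 623 in T (median 357), from 331 to 803 in WSD (median 467) and from 285 to 383 in T + WSD (median 337). Of the 6 WSD animals, 3 lay above every control, and the groups overlapped in every comparison. The log2 fold change in WSD was 0.70 (SE 0.33, 95% confidence interval 0.02 to 1.38, unadjusted p = 0.0439, adjusted p = 0.258). T + WSD was close to C, with a value of 0.12 (SE 0.33, adjusted p = 0.851), and the interaction was -0.999 (SE 0.46, unadjusted p = 0.0422, adjusted p = 0.349).

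AGPAT3, a related acyltransferase (ENSMMUG00000045179), had 172 counts over the 24 libraries, with 0 to 18 in any library. Its means of 0.325, 0.412, 0.434 and 0.410 CPM in C, T, WSD and T + WSD lay within the spread of each other, and its interval in WSD against C, from -1.05 to 1.68 on the log2 scale, covered more than a 1.5-fold change either way. No difference of AGPAT3 was detectable at these counts. As for LPIN1 below, whether reads of AGPAT3 were counted under another identifier was not tested.

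The lipins form the phosphatase step. LPIN1, a major phosphatidate phosphatase of fat (ENSMMUG00000021672), had 17 counts in all, with 0 to 4 per library, and was not tested. Whether its reads were counted under another identifier was not tested, so the value is a limit on this identifier and not on the lipin. LPIN2, the lipin best known from liver (ENSMMUG00000017548), ran from 77.5 to 210 CPM in C (median 146), from 127 to 462 in T (median 196), from 82.1 to 396 in WSD (median 141) and from 121 to 245 in T + WSD (median 130). T had the highest mean, 241 ± 128 CPM, with 3 of 6 animals above every control, while the means of C and T + WSD were 145 ± 60.2 and 147 ± 48.2 (SD, n = 6). The log2 fold change in T was 0.74 (SE 0.36, 95% confidence interval -0.01 to 1.49, adjusted p = 0.579) and did not pass the test. The WSD mean of 176 ± 111 CPM (SD, n = 6) rested on WSD replicate 20, without which the log2 fold change moved from 0.28 to -0.13.

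The acylation of diacylglycerol commits it to triglyceride. DGAT1, which resides in the endoplasmic reticulum and is not related in sequence to DGAT2 (ENSMMUG00000000825), ran from 23.3 to 111 CPM in C (median 101), from 78.9 to 136 in T (median 93.0), from 78.3 to 261 in WSD (median 110) and from 67.0 to 108 in T + WSD (median 85.7). The WSD group held the highest values, but it overlapped with every other group. The log2 fold change was 0.67 in WSD against C (SE 0.30, 95% confidence interval 0.05 to 1.29, unadjusted p = 0.0357, adjusted p = 0.238) and -0.65 in T + WSD against WSD (SE 0.30, unadjusted p = 0.0412, adjusted p = 0.228). Without WSD replicate 20, the animal at 261 CPM, these values became 0.38 (adjusted p = 0.548) and -0.36 (adjusted p = 0.534).

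DGAT2, which can act at the surface of lipid droplets (ENSMMUG00000000185), showed the same order of groups as GPAM. It ran from 65.2 to 3085 CPM in C (median 1396), from 615 to 2708 in T (median 1082), from 1283 to 4397 in WSD (median 3050) and from 1482 to 1873 in T + WSD (median 1624). The means were 1565 ± 1062, 1298 ± 726, 3004 ± 1228 and 1651 ± 165 CPM (SD, n = 6). WSD overlapped with each other group, and the 6 T + WSD animals again spanned a narrow range, with a coefficient of variation of 9.98% against 67.9% in C. The log2 fold change in WSD was 0.94 (SE 0.50, 95% confidence interval -0.09 to 1.97, adjusted p = 0.310), against 0.08 (SE 0.49, adjusted p = 0.941) in T + WSD and -0.27 (SE 0.49, adjusted p = 0.910) in T. Without C replicate 1 the WSD value was 0.69 (adjusted p = 0.490).

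MOGAT1, the monoacylglycerol acyltransferase (ENSMMUG00000015649), had low counts, with 280 over the 24 libraries and at most 56 in any. The 6 C libraries held 20 counts together and the 6 T libraries 24, while the WSD libraries held 152 and the T + WSD libraries 84. Its CPM ran from 0 to 0.327 in C (median 0.170), from 0.102 to 0.299 in T (median 0.186), from 0.141 to 2.25 in WSD (median 1.56) and from 0 to 1.94 in T + WSD (median 0.572). On the Western-style diet, 8 of 12 animals, 4 in each hormone state, lay above every animal on chow, and the other 4 lay within the range of the chow animals. The gene reached the CPM of the filter in no C or T library and in 4 libraries of each diet group, so it entered the test through the groups in which it was high. With no filter, the log2 value was 2.498 for the averaged diet (adjusted p = 0.0138), which was still called, and 2.22 in T + WSD against C (adjusted p = 0.0701), which was not.

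Averaged over the hormone states, the diet effect on MOGAT1 was 2.51 on the log2 scale (SE 0.53, 95% confidence interval 1.41 to 3.61, adjusted p = 0.00929, edgeR), a called rise. With each animal left out in turn, it stayed between 2.20 and 2.70 with adjusted p between 0.00525 and 0.0207, and in the other 16 libraries it was 2.62 (adjusted p = 0.0211). Within the high-share libraries, the mean was 0.183 CPM on chow and 0.967 CPM on the Western-style diet. With the mesothelial marker mean as a covariate the estimate was 2.20 (unadjusted p = 0.00403, adjusted p = 0.994), in a fit that called 0 of the 15207 genes for the diet. The part of other cell types in the rise was not tested beyond this fit.

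Against C alone, the rise of MOGAT1 in T + WSD passed the threshold at an adjusted p of 0.0478 (log2 fold change 2.23, SE 0.77, 95% confidence interval 0.64 to 3.82). The larger value in WSD, 2.94 (SE 0.75, unadjusted p = 0.000737, adjusted p = 0.131), did not pass in edgeR and did in DESeq2 (3.00, adjusted p = 0.0177). The difference between T + WSD and WSD was -0.71 (SE 0.67, adjusted p = 0.590) and the interaction -0.86 (SE 1.07, adjusted p = 0.808), so that a different response under testosterone was not detectable. T against C was 0.15 (SE 0.83, 95% confidence interval -1.56 to 1.86, adjusted p = 0.980). The T + WSD call was lost without any of C replicates 1, 2, 3, 4 and 5 or T + WSD replicates 8, 10, 11 and 12 (adjusted p between 0.0531 and 0.184), and without T + WSD replicate 10 the log2 fold change was 1.61. It was also lost outside the high-share libraries (2.04, adjusted p = 0.153), where 0.505% of all genes were called, against 10% in all libraries.

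**Figure D2:**
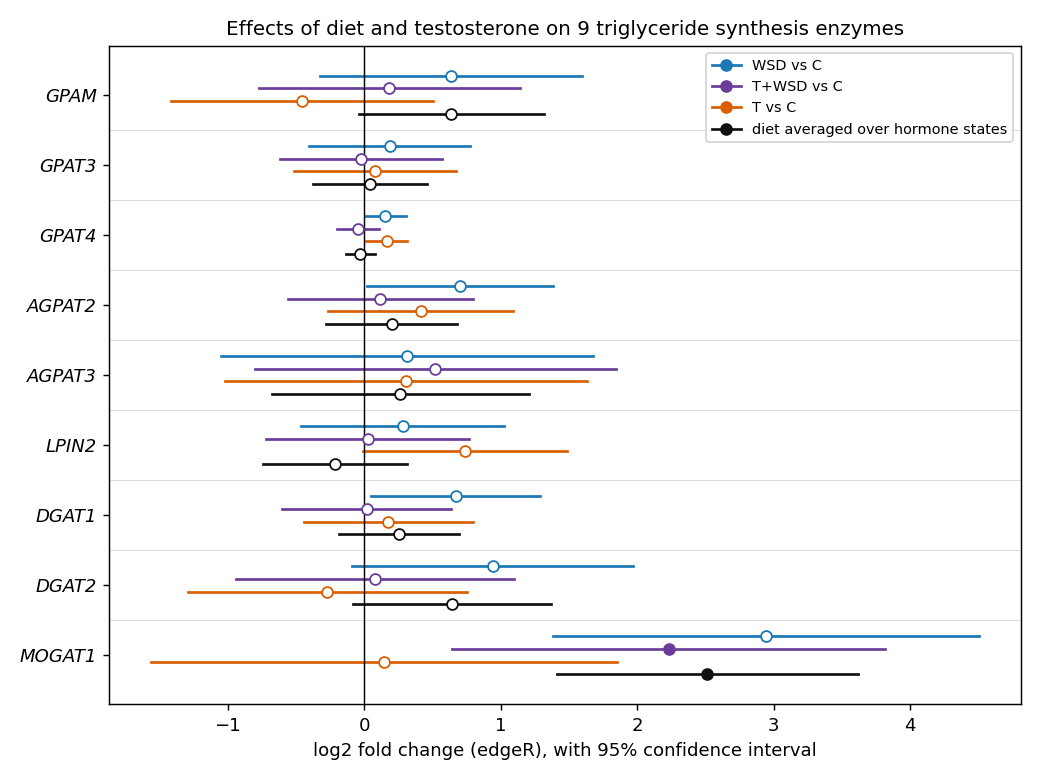
Log2 fold changes (edgeR) of the 9 tested enzymes with their 95% confidence intervals, in WSD, T + WSD and T against C and for the diet averaged over hormone states; filled points are called DEGs. The 2 filled points are MOGAT1 in T + WSD against C (2.23) and for the averaged diet (2.51), and the GPAT4 intervals against C are the narrowest.

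The calls among the enzymes were counted beside those over all genes. In T + WSD against C, 1 of the 9 tested members was called, MOGAT1, where 10% of all tested genes were (10.9% in DESeq2, which called the same 1 member). For the diet averaged over hormone states it was again MOGAT1 alone, against 5.3% of all genes (6.78% in DESeq2). In edgeR it was also the only member with an unadjusted p under 0.05 in these comparisons, against 32.1% and 29.1% of all genes. In DESeq2, GPAM and LPIN1, which has 17 counts in all, also had an unadjusted p under 0.05 for the averaged diet (0.0396 and 0.0320). No member was called in WSD or in T against C, where edgeR called 0% of all genes. At an unadjusted p under 0.05 in edgeR, 4 members stood in WSD (GPAT4, AGPAT2, DGAT1 and MOGAT1) against 18.5% of all genes, and 1 in T (GPAT4) against 8.63%. The WSD count rested on single animals. It was 1 without C replicate 1, WSD replicate 20 or WSD replicate 24, and 5 without WSD replicate 19. Without the high-share libraries it was 2, and the T count was 4. DESeq2 called MOGAT1 in WSD, where it called 1.58% of all genes, and 0 members in T, where it called 0.029%.

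Between the treated groups, no member was called in T + WSD against WSD (0.815% of all genes called, 2.62% by DESeq2, which called 0 members). There 2 members had an unadjusted p under 0.05, GPAT4 and DGAT1, against 20% of all genes. In T + WSD against T, where 3.77% of all genes were called, no member was, and GPAT4 and MOGAT1 had an unadjusted p under 0.05, against 25.9% of all genes. DESeq2 called MOGAT1 there, with 6.1% of all genes. For testosterone averaged over diets, 0 members and 0% of all genes were called, and 0 members had an unadjusted p under 0.05, against 16.5% of all genes. DESeq2 called 0 members and 0.872% of all genes. For the interaction 0 members were called against 0.809% of all genes, and GPAT4 and AGPAT2 had an unadjusted p under 0.05, against 13.5% of all genes. DESeq2 called GPAT4 and 3.02% of all genes.

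The median log2 fold change over the 9 tested members was 0.64 in WSD against C, where all 9 values were positive, beside a median of -0.02 over all genes, of which 47.6% were positive. In T + WSD against C it was 0.08, beside -0.04 over all genes, and 7 of 9 values were positive. This rested on single controls, since 2 of 9 were positive without C replicate 1 (median -0.07) and 4 without C replicate 6 (median -0.004). T against C gave a median of 0.17 with 7 positive values, beside -0.02 over all genes, and -0.02 with 4 positive values without C replicate 1. The WSD median was 0.40 without C replicate 1, with 9 positive values, and 0.38 without WSD replicate 20, with 7. Without the high-share libraries, GPAT3, AGPAT3 and LPIN2 turned negative in WSD against C. In T + WSD against C, GPAM, AGPAT2, DGAT1 and DGAT2 turned negative there and GPAT4 turned positive. In T against C, GPAT3, AGPAT3, DGAT1 and MOGAT1 turned negative there. T + WSD against WSD gave a median of -0.45 with 8 of 9 values negative, beside -0.03 over all genes. Here LPIN2 turned positive without the high-share libraries. These comparisons share their control animals, and the members vary together, so the counts of signs are descriptions of these libraries.

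Within groups, GPAM, AGPAT2, DGAT1 and DGAT2 of the glycerol 3-phosphate route formed a block of covariation. After subtracting each group's mean from log2 CPM, the correlation of GPAM and DGAT2 over the 24 animals was r = 0.95 and rho = 0.88, each with a permutation p of 1e-05, the smallest that 100000 resamples can give (adjusted p = 0.000405 over the 81 relations computed). Without the 2 animals farthest from the median of GPAM, r was 0.89, and it was 0.92 in the other 16 libraries and 0.98 in the 8 high-share libraries. The last value rests on 1 difference between 2 animals in each group, with C replicate 1 among them. DGAT1 and DGAT2 had r = 0.87 and rho = 0.83 (permutation p = 1e-05 for both, adjusted p = 0.000405), with r = 0.79 without the 2 farthest animals and 0.59 in the other 16 libraries. AGPAT2 had r = 0.88 with DGAT2 (rho = 0.69, adjusted permutation p = 0.00284 and 0.0158), with 0.73 without the 2 farthest animals and 0.64 in the other 16 libraries. GPAM and DGAT1 had r = 0.80 (rho = 0.70, adjusted permutation p = 0.00351 and 0.00952), with 0.59 without the 2 farthest animals and 0.41 in the other 16 libraries. Of the 36 pairs of members, 9 had an adjusted permutation p of r under 0.05, and all 9 were positive.

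**Figure D3:**
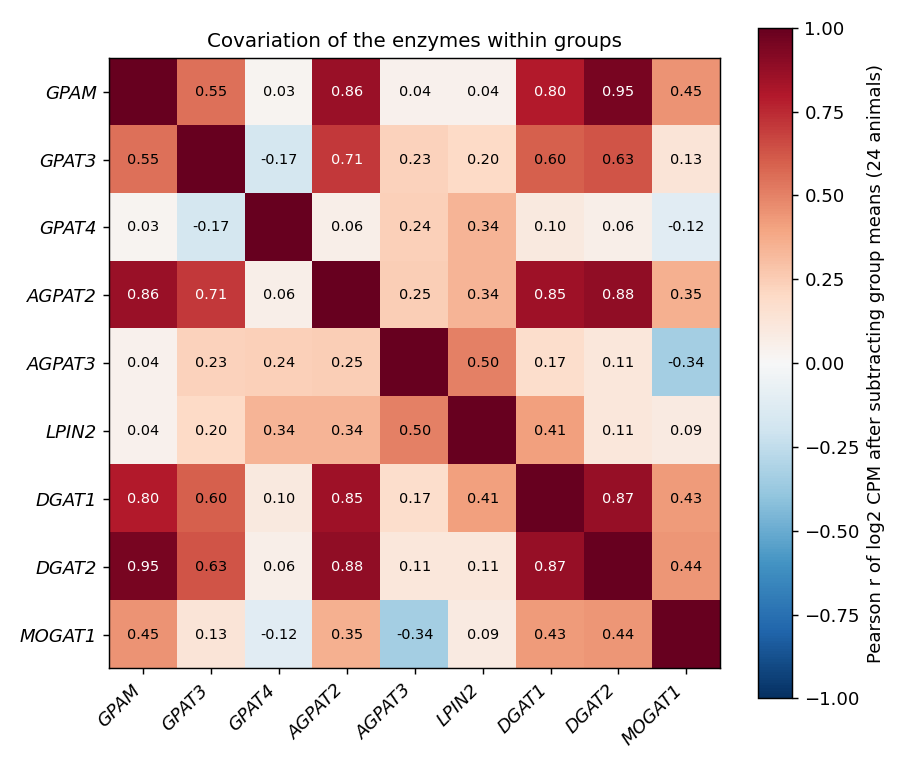
Pearson r between the 9 tested enzymes over 24 animals, computed on log2 CPM after subtracting group means, on a colour scale from -1 to 1. GPAM, AGPAT2, DGAT1 and DGAT2 form a block with r between 0.80 and 0.95 (for GPAM and DGAT1 0.41 in the 16 libraries that are not high-share), while GPAT4 has r between -0.17 and 0.34 with every other enzyme.

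Over all 24 animals, GPAT4, AGPAT3 and LPIN2 stood outside this block. GPAT3 had r = 0.71 to AGPAT2 (rho = 0.63, adjusted permutation p = 0.0173 and 0.0283), and 0.45 in the other 16 libraries. Its r to GPAM was 0.55 (adjusted permutation p = 0.140), and 0.08 in the other 16 libraries. GPAM correlated with GPAT4 at r = 0.03 and with LPIN2 at r = 0.04 over all 24 animals. In the 8 high-share libraries these values were 0.83 and 0.77, and in the other 16 they were -0.20 and -0.35. The 8 hold 2 animals of each group, so r there rests on 1 difference per group, and C replicate 1 is in that of C. Whether r differs between the sets of libraries was not tested. MOGAT1 had weaker relations, with r = 0.45 to GPAM (rho = 0.54, adjusted permutation p = 0.0125 and 0.0227) and r = 0.44 to DGAT2 (rho = 0.53, adjusted permutation p = 0.00869 and 0.0227). Their r was 0.44 and 0.46 without the 2 farthest animals, and 0.26 and 0.32 in the other 16 libraries.

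The same enzymes and GPAT3 followed the adipocyte markers over all 24 animals, a list that holds none of them. GPAT3 had r = 0.74 and rho = 0.65 with the adipocyte mean (adjusted permutation p = 0.00869 and 0.0158). Its r was 0.58 without the 2 animals farthest from the median of GPAT3, and 0.53 in the other 16 libraries. DGAT2 and the adipocyte mean had r = 0.89 and rho = 0.67 (adjusted permutation p = 0.00522 and 0.0227), with r = 0.70 without the 2 animals farthest from the median of DGAT2. In the other 16 libraries r was 0.35. It was 0.995 in the high-share libraries, which hold 2 animals per group and include C replicate 1. For GPAM the values were r = 0.86 and rho = 0.74 (adjusted permutation p = 0.00292 and 0.0123), with 0.69 without the 2 farthest animals and 0.51 in the other 16 libraries. For DGAT1, r was 0.75 (rho = 0.55, adjusted permutation p = 0.0341 and 0.0660), with 0.51 without the 2 farthest animals and -0.14 in the other 16 libraries, so this relation did not hold there. Between GPAM and DGAT2 the relation in the other 16 libraries was therefore larger in value than that of either gene with the adipocyte markers; this difference was not tested. In T + WSD the adipocyte mean was the highest of the groups, 9.50 on the log2 CPM scale against 9.11 in WSD and 8.37 in C, while GPAM, DGAT1 and DGAT2 had lower means in T + WSD than in WSD. The markers did not move as 1 in this: from WSD to T + WSD the mean of LEP went from 615 to 1255 CPM and that of PLIN4 from 2805 to 4645 CPM, while PLIN1 went from 2065 to 2010 CPM and PPARG from 247 to 227 CPM. FABP4, an abundant fatty acid carrier of adipocytes, had group means of only 1.72 to 2.59 CPM under its identifier.

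**Figure D4:**
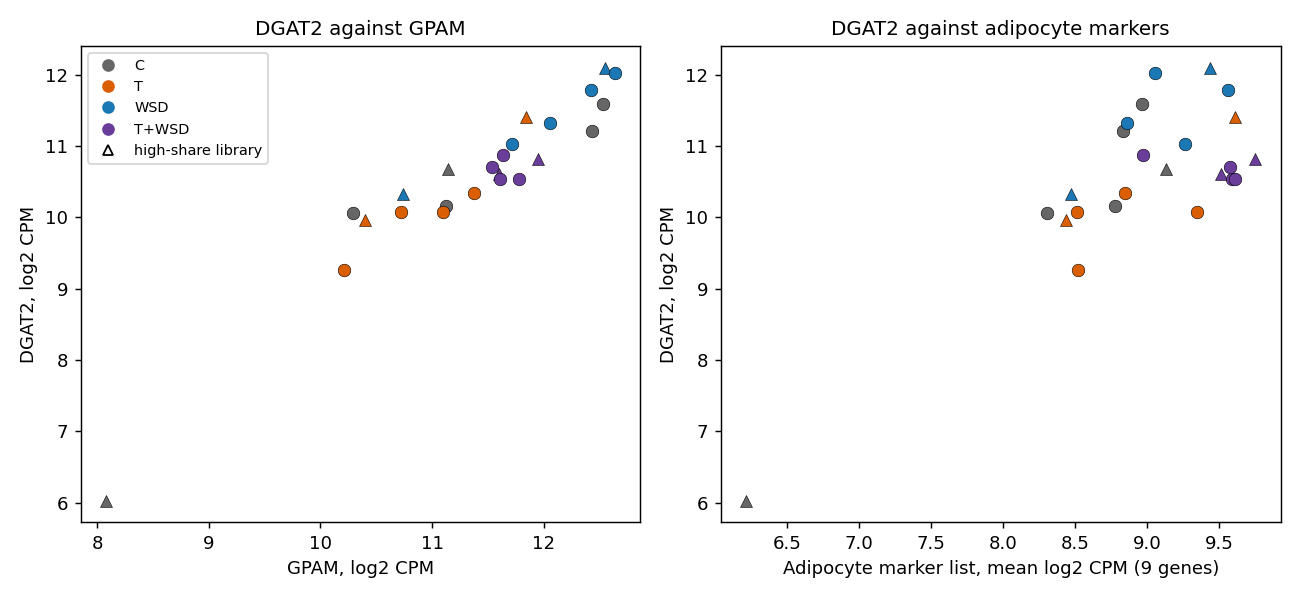
DGAT2 (log2 CPM) against GPAM (log2 CPM, left) and against the mean log2 CPM of 9 adipocyte markers (right) in the 24 animals, with colours for the groups and triangles for the high-share libraries. The points follow 1 line on the left (r = 0.95 within groups), and on the right C replicate 1 lies apart from the other animals, at 6.22 on the adipocyte axis.

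Among all tested genes with a symbol and a mean of at least 1 CPM, the 3 genes whose log2 CPM was most like that of each member over the 24 animals were looked up. This search used no group means, so that treatment differences and C replicate 1 enter r. DGAT2 was the closest of 11491 genes to GPAM and GPAM the closest to DGAT2 (r = 0.95). After DGAT2, the closest to GPAM were DNAJA4, a co-chaperone, and ITGA7, an integrin subunit (r = 0.94 and 0.92). DGAT2 was followed by SLC2A4 (r = 0.95), the insulin-responsive glucose transporter, and THRSP (r = 0.94), a regulator of lipogenesis. For AGPAT2 the closest genes were MTHFD1, an enzyme of folate metabolism, SLC2A4 and ACSL1, which activates fatty acids (r = 0.92, 0.91 and 0.90). For DGAT1 they were DLD, a subunit of pyruvate dehydrogenase, ACSL1 and CRAT, carnitine acetyltransferase (r = 0.94, 0.93 and 0.93). Values were lower for LPIN2 (C2CD2, r = 0.87), GPAT3 (ACAD10, r = 0.77) and GPAT4 (PRPF31, r = 0.73), and the low counts of MOGAT1 (HEBP2, r = 0.80) and AGPAT3 (IGHMBP2, r = 0.67) limit theirs.

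Of 35 further genes of the pathway, which were paralogs of the members, suppliers of acyl-CoA and glycerol, genes of droplet assembly and lipin control and the phospholipid branches, 30 were tested. In T + WSD against C, 2 of the 30 were called, where 10% of all genes were, and 9 had an unadjusted p under 0.05, where 32.1% of all genes did. AQP3, a glycerol channel, was higher in every T + WSD animal (2.54 to 3.67 CPM) than in any control (0.619 to 2.04 CPM), with a log2 fold change of 1.21 (SE 0.33, adjusted p = 0.0166). ACSL4, an acyl-CoA synthetase that prefers arachidonate, was lower in every T + WSD animal (104 to 156 CPM) than in any control (157 to 308 CPM), with -0.66 (SE 0.20, adjusted p = 0.0269). Groups of C and T + WSD did not overlap in 7.61% of all genes. The ACSL4 call was lost without C replicate 1 or 3 or T + WSD replicate 7, 8 or 10 (adjusted p between 0.0516 and 0.0999), and with the mesothelial mean as a covariate its value was 0.01. The fit with this covariate called 0 of the 15207 genes in T + WSD against C, and the covariate did not overlap between these groups. Without the high-share libraries neither gene was called, at 0.96 (adjusted p = 0.195) for AQP3 and -0.40 (adjusted p = 0.284) for ACSL4.

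CTDNEP1, the phosphatase that activates lipins, and PCYT1A, the regulated enzyme of phosphatidylcholine synthesis, passed the adjusted p but not the fold threshold in T + WSD, with log2 fold changes of 0.36 (SE 0.11, adjusted p = 0.0256) and 0.52 (SE 0.13, adjusted p = 0.0114). CTDNEP1 was 35.7 to 46.7 CPM in T + WSD and 27.5 to 41.0 CPM in C, and PCYT1A was 73.8 to 89.3 CPM and 35.2 to 77.1 CPM, so that both pairs of groups overlapped. Without the high-share libraries neither passed the adjusted p, at 0.29 (adjusted p = 0.194) for CTDNEP1 and 0.40 (adjusted p = 0.109) for PCYT1A, and with the mesothelial covariate both values were 0.225. No further pathway gene was called by edgeR in WSD or T against C, where 12 and 8 of the 30 had an unadjusted p under 0.05, against 18.5% and 8.63% of all genes. DESeq2 called 2 and 0 of them, against 1.58% and 0.029%. The values without single animals, without the high-share libraries and with the mesothelial covariate were added for these further genes after the data were seen.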

How the data were processed

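Omental biopsies of 24 female rhesus macaques, taken after 3 years of treatment, were sequenced as ribosomal-RNA-depleted single-read libraries. The authors deposited 1 table of raw read counts per gene. Per the labels and the methods of the study, reads were checked with FastQC 0.11.5, trimmed with Trimmomatic 0.36 and aligned with STAR 2.5.2b to rheMac8, and the authors tested with DESeq2 1.18.1. The counting tool and its strand setting are not given in the sources used here, so overlapping and antisense genes cannot be told apart. The table had 0 columns of other samples, and no pair of libraries was identical.

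Here the counts were normalised by TMM and tested in edgeR 4.0.16 (R 4.3.3) by the quasi-likelihood test, in 1 fit of 24 animals with a mean for each group. Genes entered by filterByExpr (minimum count 10, minimum total 15), and p-values were adjusted by Benjamini-Hochberg over 15207 genes. A log2 CPM has a prior count of 2. Intervals cover the spread between these animals. Correlations within groups used permutations within groups (Python 3.11.15, numpy 2.4.6, scipy 1.17.1), and the scripts were tested on simulated data. Libraries with over 5% of counts on 1 gene were called high-share. Alternatives were DESeq2 1.42.0, other size factors, no filter, only the groups compared, the high-share libraries as covariate or left out, the mesothelial marker mean as covariate, and each animal left out in turn.

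All 10 members are named, and of the further pathway genes those with an adjusted p under 0.05 in T + WSD, WSD or T against C. The 3 genes most like each member were ranked by Pearson r. Members and lists were chosen with earlier results of these data known. No sequence is shown.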

Additional observations from a re-analysis of the deposited data

Results flagged for a closer look

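An animal stood apart from the rest of its group, by Dixon's test at its 95% critical value, in 5 of the 36 groups tested for the 9 enzymes. The test was run on linear CPM, and each of the 5 was the highest animal of its group. A chance rate of about 1 in 20 groups holds for independent, normally distributed values. The enzymes vary together and CPM need not be normal, so no excess is read from the count. Values of log2 CPM were not tested in this way. T replicate 14 was the highest T animal in 3 of them, with 1.08 CPM of AGPAT3 (next 0.406), 136 CPM of DGAT1 (next 94.7) and 2708 CPM of DGAT2 (next 1302). Without it, the log2 fold change of DGAT2 in T against C was -0.62. LPIN2 reached 245 CPM in T + WSD replicate 11 (next 134) and 396 CPM in WSD replicate 20 (next 166). T replicate 14 and WSD replicate 20 are high-share libraries.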

How the results depend on the processing

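No paired analysis was possible because the replicate numbers of the labels run from 1 to 24 and no number is shared by the groups. The diet effect on MOGAT1 was called with every animal left out in turn, in DESeq2 and without the high-share libraries, and was not called with the mesothelial covariate, which left 0 members called. The fit with that covariate called 0 of the 15207 genes for the diet and in T + WSD against C. In T + WSD against C the members called fell from 1 to 0 with no filter, with the high-share libraries as covariate or left out, with the mesothelial covariate and in a fit of only the groups compared, where MOGAT1 did not pass the filter. DESeq2 called 1 member in WSD against C, in T + WSD against T and for the interaction. With an animal left out, the count ran from 0 to 1 in T + WSD against C and for the interaction. Over 1728 alternatives for single members, 1611 kept their direction and side of the threshold and 98 turned the sign. None of the 98 was of a called result, that is of MOGAT1 in T + WSD against C or for the averaged diet. MOGAT1 did turn in T against C. The turned results had main values of at most 0.594 in size. Further pathway genes are not in this count. The cause was not tested.

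Turned log2 values without the high-share libraries were, for T + WSD against C, GPAM -0.21, GPAT4 0.04, AGPAT2 -0.029, DGAT1 -0.27 and DGAT2 -0.22; for WSD, GPAT3 -0.01, AGPAT3 -0.17 and LPIN2 -0.10; for T, GPAT3 -0.06, AGPAT3 -0.08, DGAT1 -0.092 and MOGAT1 -0.42. They were LPIN2 0.28 in T + WSD against WSD, GPAT3 -0.09 and GPAT4 0.006 for the diet, GPAT4 0.034 for testosterone, and AGPAT3 0.94 and DGAT2 0.001 for the interaction. With the mesothelial covariate they were GPAM -0.26, AGPAT2 -0.24, LPIN2 -0.30, DGAT1 -0.58, DGAT2 -0.38 and ACSL4 0.006 in T + WSD against C, GPAT3 -0.12 in WSD and -0.042 in T, DGAT2 -0.057 in T + WSD against T, GPAT3 -0.36, AGPAT2 -0.01, DGAT1 -0.11 and MOGAT2 -1.28 for the diet, and GPAM -0.23 and AGPAT3 0.05 for the interaction. With the high-share libraries as covariate they were DGAT1 -0.002 in T + WSD against C and GPAM -0.05 and AGPAT3 0.093 for the interaction, where GPAM was -0.031 with no filter.

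With an animal left out, values that changed sign ran in T + WSD against C from -0.035 to 0.519 for GPAM, -0.182 to 0.12 for GPAT3, -0.078 to 0.048 for GPAT4, -0.078 to 0.264 for AGPAT2, -0.181 to 0.184 for LPIN2, -0.158 to 0.109 for DGAT1 and -0.157 to 0.389 for DGAT2. In WSD they ran from -0.005 to 0.6 for AGPAT3 and -0.128 to 0.43 for LPIN2, and in T from -0.094 to 0.226 for GPAT3, -0.156 to 0.582 for AGPAT3, -0.016 to 0.268 for DGAT1, -0.622 to 0.044 for DGAT2 and -0.096 to 0.518 for MOGAT1. Against WSD, T + WSD ran from -0.079 to 0.525 for AGPAT3 and -0.464 to 0.153 for LPIN2, and against T from -0.063 to 0.674 for AGPAT3. The diet ran from -0.049 to 0.113 for GPAT3 and -0.045 to 0.018 for GPAT4, testosterone from -0.147 to 0.022 for GPAT3, -0.034 to 0.03 for GPAT4 and -0.181 to 0.004 for AGPAT2, and the interaction from -0.337 to 0.254 for GPAM and -0.385 to 0.356 for AGPAT3. Low counts under their identifiers limit MOGAT1, AGPAT3 and LPIN1.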

Other observations

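The levels of GPAM and DGAT2, at the entry and the end of the pathway, were also set against each other within each library, a comparison chosen after the data were seen. The log2 ratio of GPAM to DGAT2 counts ran from 0.77 to 1.24 in T + WSD and from 0.41 to 0.73 in WSD, with no overlap between them. On average they differed by 0.41 (two-sided exact permutation p = 0.00216, the smallest that 6 against 6 animals allow, adjusted p = 0.0519 over 24 tests of ratios), which missed the threshold after adjustment. With each animal left out it stayed between 0.37 and 0.46. It was 0.31 without the high-share libraries (4 against 4, exact permutation p = 0.0286, the smallest possible). Within them it was 0.63 (2 against 2, exact permutation p = 0.333, also the smallest possible, so that test could not pass). In C the ratio ran from 0.22 to 2.05, a range that covers both groups. Against C it differed by 0.03 in T + WSD (exact permutation p = 0.939, adjusted p = 0.982) and by -0.39 in WSD (exact permutation p = 0.167, adjusted p = 0.646).

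Among the further pathway genes, 3 of 30 were called for the diet averaged over hormone states, named here after their values were seen, where 5.3% of all genes were. None of the 3 was called without the high-share libraries or with the mesothelial covariate. The fit with that covariate called 0 of the 15207 genes for the diet, so no gene kept a call there. ACSL6, an acyl-CoA synthetase, rose by 1.04 on the log2 scale (SE 0.25, adjusted p = 0.0152) and was called with every animal left out in turn (0.95 to 1.25), but not without the high-share libraries (0.93, adjusted p = 0.0583) or with the mesothelial covariate (0.79, adjusted p = 0.994). It ran from 12.2 to 36.1 CPM in WSD and 14.9 to 19.2 CPM in T + WSD, against 2.87 to 23.3 CPM in C and 4.54 to 14.7 CPM in T. ACSL3, another synthetase, had 315 CPM in WSD replicate 20 and 109 CPM in the next WSD animal. Its log2 value was 0.76 (adjusted p = 0.0358), and 0.46 (adjusted p = 0.0427) without that animal, which is below the fold threshold. The call was lost in 9 of 24 fits with an animal left out (adjusted p up to 0.0580) and without the high-share libraries (0.51, adjusted p = 0.0830). MOGAT2, the intestinal paralog of MOGAT1, rested on WSD replicate 21, with 3330 counts (136 CPM) against 1.46 CPM in the next animal of the group. Its log2 value was 2.79 (adjusted p = 0.0457), and 0.50 (adjusted p = 0.457) without that animal.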
